A study of Mus musculus with 2 samples.

Results

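Lgr5-positive pregranulosa cells are the somatic cells of the E15.5 mouse fetal ovary that carried pregranulosa transcripts together with 1 or more unique molecular identifiers (UMIs, each standing for 1 captured transcript) of Lgr5. There were 1686 such cells, 579 from the wild-type (WT) library and 1107 from the library with a deletion of the glucocorticoid receptor (KO), which is 51.2% of all 3293 pregranulosa cells, 25.2% of 6682 somatic cells and 6.64% of the 25395 barcodes within the limits on cells. They were chosen by measured values. Barcodes had 3000 or more UMIs and under 10% mitochondrial UMIs. Somatic cells had fewer than 10 UMIs per 10000 summed over the germ cell genes Dazl, Ddx4, Smc1b, Sycp1, Sycp3 and Stra8. Pregranulosa cells were somatic cells in which Fst, Kctd14, Gng13, Foxl2 and Wnt6 summed to at least 5 UMIs per 10000 and to more than Krt19, Krt7 and Upk3b, with Col1a1, Col1a2 and Col3a1 below 15. The comparators were the 1607 pregranulosa cells without an Lgr5 UMI (475 WT and 1132 KO) and 668 epithelial cells (189 WT and 479 KO), in which Krt19, Krt7 and Upk3b reached 5 and were not below the pregranulosa sum.

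Pregranulosa cells are the supporting cells of the fetal ovary. They surround germ cells, later enclose them in primordial follicles and become the granulosa cells. Part of them arise early from the bipotential gonad, and others are added later from the ovarian surface epithelium, where Lgr5 is a known marker. LGR5 is a receptor for R-spondins, secreted proteins that raise WNT signalling by removing the ubiquitin ligases ZNRF3 and RNF43 from the cell surface. In the fetal ovary RSPO1 and WNT4 act through beta-catenin to maintain the ovarian fate of the supporting cells.

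Both libraries were made from female E15.5 ovaries of the strain labelled Tg(Pou5f1-EGFP)2Mnn Nr3c1tm1.1Jda, so WT and KO embryos alike carried the OCT4-GFP reporter of germ cells. The KO pool held the ovaries of 2 embryos homozygous for a GR deletion in all cells, made by a beta-actin Cre from a floxed exon 3 of Nr3c1. The WT pool held those of 4 embryos. Germ cells sorted by GFP were mixed with somatic cells at 60 to 40, and each pool gave 1 library, so no difference has a replicate check and genotype cannot be told apart from embryo pool, sort and capture. Fewer transcripts in each cell and fewer cells with a transcript are not separated by a level summed over cells.

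The WT library held 11430 barcodes and 168483330 UMIs, the KO library 17829 barcodes and 186117981 UMIs, and the median depth within the limits was 15637 and 10281 UMIs. The libraries shared 75 barcode sequences, and 2 WT and 4 KO Lgr5-positive cells carried a shared barcode, none of which was an Lgr5-positive cell in both. In the Lgr5-positive cells, Nr3c1, which encodes the glucocorticoid receptor, was at 17.6 CPM in WT and 5.70 CPM in KO, a log2 ratio of -1.62 (-2.08 to -1.18). Here and below, CPM is the number of UMIs of a gene per 1000000 UMIs summed over the cells of a class in a library, and parentheses after a log2 ratio or a share hold an exact 95% interval, which covers counting error only. Reads of this chemistry come from transcript ends and lie outside the deleted exon, so the Nr3c1 level is not a direct measure of the deletion.

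Lgr5 (ENSMUSG00000020140), on the minus strand of chromosome 10 at chr10:115450311-115587780 in GRCm38, was at 177 CPM (168 to 186) in the Lgr5-positive cells of WT and at 193 CPM (185 to 202) in those of KO. Its level over all pregranulosa cells was 107 CPM (101 to 112) in WT and 106 CPM (102 to 111) in KO, so the libraries did not differ beyond counting error there. The epithelium also carried Lgr5, at 115 CPM (104 to 127) in WT and 126 CPM (117 to 135) in KO. In stroma, a cell type that should lack Lgr5, it was at 0.967 CPM in WT and 2.05 CPM in KO, and in barcodes with germ cell markers at 3.91 and 6.25 CPM. The level in Lgr5-positive cells is set by the choice of cells. Over all pregranulosa cells Lgr5 was below the epithelium in KO beyond counting error, and in WT the intervals overlapped.

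Most Lgr5-positive cells carried few Lgr5 UMIs, with a median of 2 per cell in each library. In WT, 191 cells (33.0%) had 1 UMI, 169 had 2, 96 had 3, and the highest cell had 12. In KO, 532 cells (48.1%) had 1 UMI, 320 had 2, 154 had 3, and the highest cell had 9. Cells with 2 or more therefore made up 67.0% of the WT and 51.9% of the KO Lgr5-positive cells. Scaled to depth the libraries were closer, with a median of 1.52 Lgr5 UMIs per 10000 and a range of 0.383 to 7.76 in WT, and a median of 1.70 and a range of 0.386 to 8.28 in KO.

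**Figure D1:**
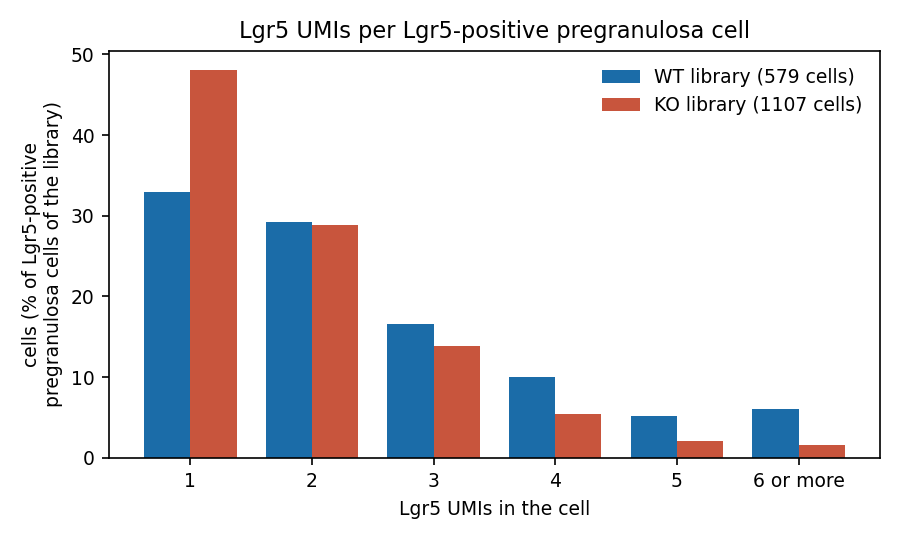
Share of Lgr5-positive pregranulosa cells (y axis, % of the cells of the library) by the number of Lgr5 UMIs in the cell (x axis), for the 579 WT cells (blue) and the 1107 KO cells (red). The bar at 1 UMI holds 33.0% of the WT and 48.1% of the KO cells, and WT is above KO in every bar from 2 UMIs upwards.

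The share of pregranulosa cells with an Lgr5 UMI was 54.9% (51.9 to 58.0) in WT and 49.4% (47.4 to 51.5) in KO. Depth differed between the libraries and between the classes: median UMIs were 13734 in WT and 9331 in KO Lgr5-positive cells, against 10971 and 7682.5 in Lgr5-negative cells. After every cell was thinned at random to 3000 UMIs, 23.8% (21.3 to 26.5) of the WT and 23.2% (21.5 to 25.0) of the KO pregranulosa cells still had an Lgr5 UMI, and the libraries no longer differed beyond counting error. The epithelium had an Lgr5 UMI in 74.1% of WT and 67.0% of KO cells at median depths of 17280 and 11237 UMIs, and in 27.0% and 32.2% after thinning. Stroma had one in 0.923% of WT cells (5 of 542) and 1.18% of KO cells (13 of 1106), at median depths of 9002.5 and 5871.5 UMIs, and in 0.369% and 0.633% after thinning. An Lgr5-negative cell is therefore a cell in which no Lgr5 transcript was captured at its depth, not a cell shown to lack Lgr5.

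Kitl, the KIT ligand that supports germ cells, was not used to choose cells and was at 661 CPM in WT and 681 CPM in KO, against 234 and 303 CPM in epithelium. A Kitl UMI was present in 98.1% of the WT and 97.0% of the KO cells, and in 76.9% and 81.1% after thinning. The thinned share in stroma was 11.3% in WT and 11.2% in KO. Wnt6 and Foxl2 entered the sum that chose the cells, and their levels are descriptions. Wnt6, a secreted WNT ligand, was at 723 and 692 CPM. Foxl2, the transcription factor that defines granulosa cells, was nearly absent, at 1.71 CPM in WT and 1.01 CPM in KO, with a UMI in 2.25% and 0.994% of the cells. Foxl2 was also low in Lgr5-negative cells, at 5.56 and 3.68 CPM, and 0 UMIs were found in the epithelium of either library.

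Among the genes of the rule, Gng13 stood apart. It encodes a gamma subunit of heterotrimeric G proteins, lies on chromosome 17, and was at 1884 CPM in Lgr5-positive and 766 CPM in Lgr5-negative cells of WT, and 1960.5 against 1181 CPM in KO. Its log2 ratio was 1.30 (1.25 to 1.35) in WT and 0.73 (0.70 to 0.76) in KO, and 1.18 and 0.68 with cells drawn to equal depth. With a collagen sum below 3 UMIs per 10000 it was 0.94 and 0.53, within 1.5-fold in KO. The level in Lgr5-positive cells was close in the 2 libraries, and the larger ratio in WT came with the lower level of the WT Lgr5-negative cells. Kitl did not follow it, with log2 ratios of 0.03 (-0.03 to 0.09) in WT and 0.01 (-0.04 to 0.06) in KO, nor did Wnt6, with 0.12 (0.06 to 0.18) in WT and -0.01 (-0.05 to 0.04) in KO. Fst, which encodes the activin antagonist follistatin, was lower, at 369.8 CPM in Lgr5-positive and 605 CPM in Lgr5-negative cells of WT, and 385 against 576 CPM in KO. Its log2 ratio was -0.71 in WT and -0.58 in KO, the latter within 1.5-fold, and -0.59 and -0.35 with cells drawn to equal depth. Among cells without a Krt19, Krt7 or Upk3b UMI it was -0.27 and -0.22. Kctd14 was at 939 CPM in Lgr5-positive and 1478 CPM in Lgr5-negative cells of WT, and 799 against 1111 CPM in KO. Since these genes entered the sum that chose pregranulosa cells, their levels are descriptions.

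Grouping cells by Lgr5 UMIs after thinning, so that depth is equal, gave the same order for Gng13. In WT it was at 1165 CPM in the 803 pregranulosa cells without an Lgr5 UMI, 1931 CPM in the 199 cells with 1 and 2218 CPM in the 52 cells with 2 or more. In KO the corresponding levels were 1379, 1992 and 2235 CPM, in 1719, 425 and 95 cells. Fst went the other way, from 542 through 345 to 301 CPM in WT and from 532 through 435 to 400.0 CPM in KO.

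**Figure D2:**
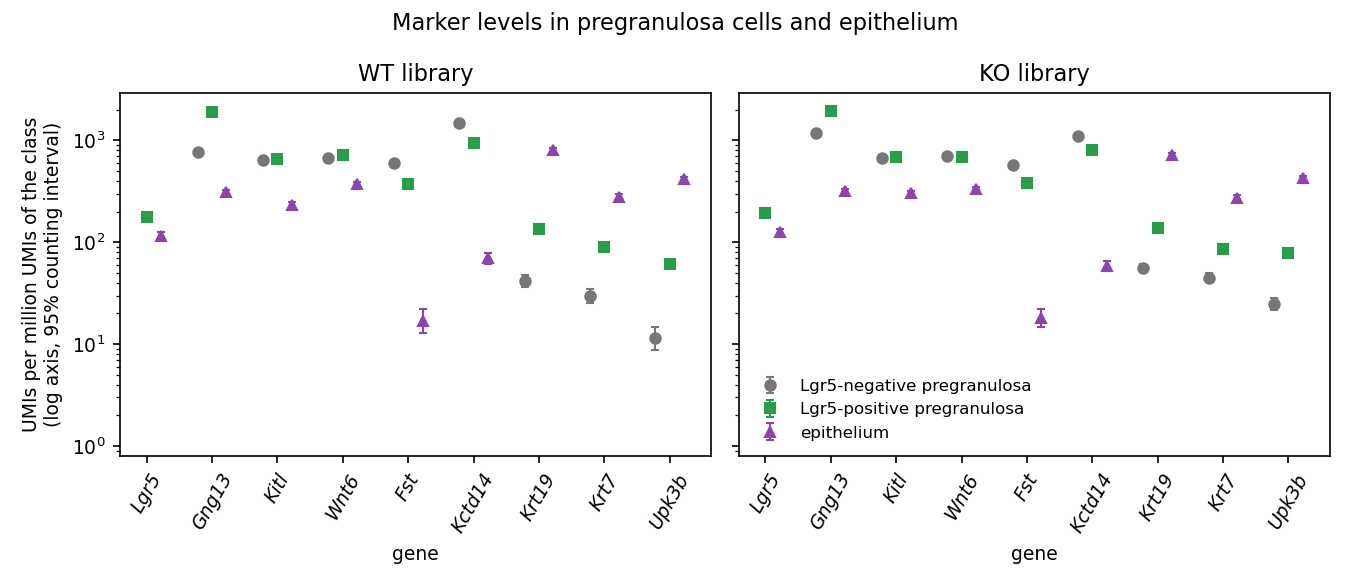
Levels of Lgr5, Gng13, Kitl, Wnt6, Fst, Kctd14, Krt19, Krt7 and Upk3b (y axis, UMIs per 1000000, log axis, with exact 95% counting intervals) in Lgr5-negative pregranulosa cells (grey), Lgr5-positive pregranulosa cells (green) and epithelium (purple) of the WT (left) and KO (right) library. Lgr5 has no point for the Lgr5-negative cells, which hold 0 UMIs by choice, and the epithelial genes Krt19, Krt7 and Upk3b lie between the other classes in Lgr5-positive cells.

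At the threshold, the 191 WT and 532 KO cells with exactly 1 Lgr5 UMI were the last to be included. Their median pregranulosa sum was 38.6 UMIs per 10000 in each library, against 36.9 in WT and 37.7 in KO for cells with 2 or more, and 33.7 and 33.5 for cells with none. An epithelial marker UMI (Krt19, Krt7 or Upk3b) was present in 58.1% of WT and 52.6% of KO cells with 1 Lgr5 UMI, in 68.6% and 61.7% of those with 2 or more, and in 27.2% and 29.7% of those with none. These shares were not thinned, and depth rose with the Lgr5 UMIs. For cells with none, 1 and 2 or more, median UMIs were 10971, 13170 and 13931 in WT, and 7682.5, 8887.5 and 9600 in KO. Few cells lay near the limit on the pregranulosa sum: 13 WT and 22 KO cells were just inside it, between 5 and 6, of which 1 and 4 had an Lgr5 UMI, and 8 WT and 27 KO somatic cells that met the other limits were just outside, between 4 and 5, of which 2 and 3 had one.

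Lgr5-positive and Lgr5-negative pregranulosa cells were compared in each library on its own. Outside the rule, Lgr5-positive cells had higher levels of Gm17660, Igf1, Igfbp3 and several genes abundant in epithelium. They had lower levels of Ramp1, Tdrd5, Gatm, Inha and several genes abundant in stroma. Of 8993 genes with 100 or more UMIs over both sides in each library, 132 (1.47%) were at least 1.5-fold higher in Lgr5-positive cells in both libraries and 251 (2.79%) were at least 1.5-fold lower in both. The median log2 ratio over all genes was -0.07 in WT and -0.05 in KO. With cells drawn to equal depth (312 WT and 784 KO cells on each side), 83 of the 132 higher genes still had 100 UMIs, of which 37 were past 1.5-fold and 82 had the same direction, and of the 251 lower genes 181 could be tested, of which 121 were past 1.5-fold and 181 had the same direction.

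Markers of other cells moved with this comparison. An epithelial marker UMI was found in 65.1% (61.1 to 69.0) of WT and 57.4% (54.4 to 60.3) of KO Lgr5-positive cells, against 27.2% (23.2 to 31.4) and 29.7% (27.0 to 32.4) of Lgr5-negative cells. These shares were not thinned, and Lgr5-positive cells were deeper. At equal depth the log2 ratios in WT and KO were 1.23 and 0.78 for Krt19, and 1.6 and 0.97 for Upk3b. Krt7 was at 1.16 and 0.53, within 1.5-fold in KO. The collagen sum had a median of 0.647 UMIs per 10000 in WT and 0.632 in KO Lgr5-positive cells, against 1.39 and 1.19 in Lgr5-negative cells. The 10 further stromal markers summed to 135 CPM in WT and 167 CPM in KO Lgr5-positive cells, against 189.6 and 174 CPM. Of 6 with enough UMIs, 3 (Pdgfra, Tcf21 and Nr2f2) were past 1.5-fold lower in both libraries, beside 2.79% of all genes, and 0 were higher. Further germ cell markers were level, at 133 and 131 CPM against 141 and 143 CPM, with 0 of 6 past the limit. The 8 perivascular markers summed to 18.2 and 27.9 CPM against 58.0 and 59.9 CPM, with 1 gene tested, Acta2, lower in both. The 8 immune markers summed to 0.732 and 17.7 CPM against 18.7 and 16 CPM, with 0 genes at 100 UMIs and 5 of 8, Ptprc among them, at 0 in WT Lgr5-positive cells. The part of these cells in the results was not tested.

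**Figure D3:**
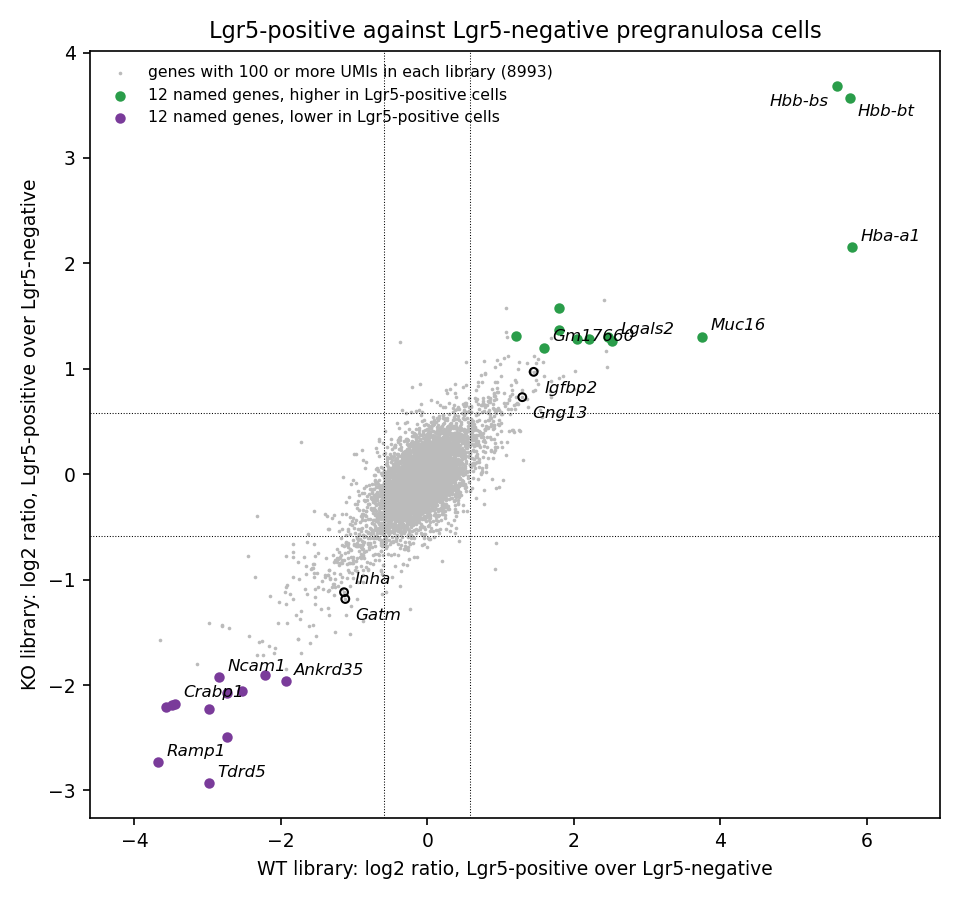
log2 ratio of Lgr5-positive over Lgr5-negative pregranulosa cells in WT (x axis) and KO (y axis) for 8993 genes (grey), with the 12 genes of largest ratio in each direction in green and purple, some other genes of the text ringed, and dotted lines at 1.5-fold. The haemoglobin genes lie farthest out on the upper side, with ratios that rest on 2 WT and 5 KO cells, and Ramp1 and Tdrd5 on the lower side.

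The 3 genes with the largest ratios were haemoglobin genes, the oxygen carriers of red blood cells. Hbb-bs was at 885 CPM in Lgr5-positive and 18.4 CPM in Lgr5-negative cells of WT, and 1077 against 83.7 CPM in KO, and Hbb-bt and Hba-a1 had ratios of 5.77 in WT and 3.57 in KO and of 5.81 in WT and 2.16 in KO. The UMIs came from few cells: 2 WT and 5 KO Lgr5-positive cells held 98.2% and 96.9% of the haemoglobin UMIs of their class. Without barcodes of 10 or more haemoglobin UMIs per 10000, the ratio was 0.03 in WT and -0.17 in KO for Hbb-bs, -0.49 and -0.14 for Hbb-bt, and -0.10 and 0.08 for Hba-a1. The 8 erythroid markers summed to 2184 and 2620.3 CPM in Lgr5-positive cells with those barcodes included, against 43.7 and 729 CPM in Lgr5-negative cells.

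Of the other 9 leading higher genes, 8 had a higher level still in the epithelium. Muc16, a membrane mucin of mesothelial surfaces, was at 15.0 CPM in Lgr5-positive and 1.11 CPM in Lgr5-negative cells of WT, and 13.2 against 5.36 CPM in KO, and at 71.3 and 62.4 CPM in epithelium. Tm4sf5, a tetraspan membrane protein, was at 62.7 CPM in Lgr5-positive and 15.2 CPM in Lgr5-negative cells of WT, and 70.4 against 28.9 CPM in KO, and at 215 and 239 CPM in epithelium. Atf3, a stress-induced transcription factor, had log2 ratios of 2.20 (1.98 to 2.44) in WT and 1.28 (1.15 to 1.41) in KO, and Lgals2, a galectin, 2.52 (1.85 to 3.27) in WT and 1.27 (0.94 to 1.60) in KO. Cdc42ep1, Tmem151a and Myo15b had lower levels, between 10.4 and 19 CPM in Lgr5-positive cells, and were likewise higher in epithelium. With cells drawn to equal depth the KO ratio was within 1.5-fold for Atf3, at 0.32, and for Tm4sf5, at 0.53, with 1.63 and 1.51 in WT. Among cells without any Krt19, Krt7 or Upk3b UMI, Atf3 was at 0.75 and 1.0, and Tm4sf5, Muc16, Lgals2, Cdc42ep1, Tmem151a and Myo15b had under 100 UMIs in each library.

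Kdr, the VEGF receptor that marks endothelium, was at 29.7 CPM in Lgr5-positive and 12.8 CPM in Lgr5-negative cells of WT, and 38.2 against 15.4 CPM in KO. It was at 86.0 and 93.4 CPM in epithelium and at 347 and 359.7 CPM in endothelium. The 8 endothelial markers together, of which 2 were at 0 in WT Lgr5-positive cells, summed to 62.4 and 78.7 CPM against 51.7 and 43.4 CPM, and Kdr was 1 of 2 with enough UMIs and the only one past the limit. At equal depth Kdr was at 0.61 and 0.77.

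Gm17660, a gene model on chromosome 5 with no role given here, was the leading higher gene whose level was highest in the Lgr5-positive cells themselves. It was at 56.6 CPM in Lgr5-positive and 18.7 CPM in Lgr5-negative cells of WT, and 64.9 against 28.2 CPM in KO, at 22.1 and 23.0 CPM in epithelium, and at 1.16 and 1.32 CPM in stroma. Its log2 ratio was 1.60 (1.28 to 1.92) in WT and 1.20 (0.99 to 1.41) in KO, it was 1.40 and 1.06 at equal depth, and it was 2.28 and 1.77 among cells without an epithelial marker UMI. A Gm17660 UMI was found in 48.2% of WT and 41.7% of KO Lgr5-positive cells. Gng13, too, had larger ratios there, of 1.75 and 1.04 in those cells.

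Among the lower genes, Ramp1 and Tdrd5 were low in epithelium and stroma too. Ramp1, a partner of the calcitonin receptor-like receptor, was at 4.63 CPM in Lgr5-positive and 59.3 CPM in Lgr5-negative cells of WT, and 6.25 against 41.5 CPM in KO, at 1.73 and 3.01 CPM in epithelium and at 3.10 and 4.24 CPM in stroma. Its log2 ratio was -3.68 (-4.20 to -3.19) in WT and -2.73 (-3.13 to -2.36) in KO, and -2.95 and -1.99 at equal depth. Tdrd5, a tudor domain protein best known from germ cells, was at 3.05 CPM in Lgr5-positive and 24.1 CPM in Lgr5-negative cells of WT, and 2.02 against 15.4 CPM in KO, with 18.5 and 14.3 CPM in barcodes with germ cell markers. Both genes thus had their highest level, among these somatic classes, in Lgr5-negative pregranulosa cells. Plk2, a polo-like kinase, was lower as well, with log2 ratios of -2.73 in WT and -2.08 in KO.

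Among the other leading lower genes, Etl4, Lmcd1, Crabp1, Tbx2, Ankrd35, Ncam1 and Ggt5 were each more abundant in stroma than in either pregranulosa class. Ncam1, a neural cell adhesion molecule, was at 5.85 CPM in Lgr5-positive and 41.9 CPM in Lgr5-negative cells of WT, and 5.70 against 21.6 CPM in KO, and at 286 and 255 CPM in stroma. Tbx2, a T-box transcription factor, was at 4.02 CPM in Lgr5-positive and 23.2 CPM in Lgr5-negative cells of WT, and 3.68 against 15.3 CPM in KO, and at 87.6 and 93.4 CPM in stroma. Among cells with a collagen sum below 3 UMIs per 10000, Ncam1 kept ratios of -3.16 and -2.25, and Tbx2 was at -1.88 in KO, with under 100 UMIs in WT. Under that limit the stromal transcription factor Nr2f2 was at -0.03 and -0.28, within 1.5-fold in both libraries.

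In the WNT pathway, the ligands and receptors with enough UMIs, Lgr5 left out, were either within 1.5-fold or lower in Lgr5-positive cells. Of 14 listed ligands outside the rule, 5 had enough UMIs, and 0 were higher and 2 lower, beside 1.47% and 2.79% of all genes. Their median log2 ratio was 0.07 in WT and -0.09 in KO. Wnt4, which maintains the ovarian fate, was at 209.7 CPM in Lgr5-positive and 321 CPM in Lgr5-negative cells of WT, and 188 against 295 CPM in KO, a log2 ratio of -0.61 (-0.71 to -0.52) in WT and -0.65 (-0.73 to -0.57) in KO. Wnt5b, at 15.4 and 13.4 CPM in Lgr5-positive cells, had ratios of -0.87 (-1.22 to -0.51) in WT and -0.60 (-0.92 to -0.28) in KO. Rspo1, a ligand of LGR5, differed little, at 231 CPM in Lgr5-positive and 219 CPM in Lgr5-negative cells of WT, and 219 against 234 CPM in KO. Of 17 receptors besides Lgr5, 7 had enough UMIs, with 0 higher, 1 lower and a median of -0.42 in WT and -0.38 in KO. The lower one was Lgr4, the paralogue of Lgr5 and also an R-spondin receptor, at 36.8 CPM in Lgr5-positive and 63.2 CPM in Lgr5-negative cells of WT, and 34.1 against 52.0 CPM in KO, with ratios of -0.78 (-1.01 to -0.55) in WT and -0.61 (-0.81 to -0.41) in KO. At equal depth Lgr4 was at -0.92 and -0.55 and Wnt4 at -0.50 and -0.61, each within 1.5-fold in 1 library, so neither call held in both. Among cells without an epithelial marker UMI Wnt4 was at -0.28 and -0.41, within 1.5-fold in both.

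Downstream, the inhibitors and feedback genes had a median of -0.20 in WT and -0.10 in KO, with 0 of 7 higher and 1 lower, the secreted inhibitor Sfrp1, at 8.17 CPM in Lgr5-positive and 16.5 CPM in Lgr5-negative cells of WT, and 12 against 21.6 CPM in KO. Sfrp1 was at 592 and 632 CPM in stroma. Axin2, the feedback target most used as a readout of WNT activity, was at 57.9 CPM in Lgr5-positive and 54.1 CPM in Lgr5-negative cells of WT, and 61.9 against 59.3 CPM in KO, with ratios of 0.10 (-0.12 to 0.31) in WT and 0.06 (-0.10 to 0.23) in KO, within 1.5-fold in both libraries. Nkd1, another feedback inhibitor, had ratios of -0.47 (-0.64 to -0.30) in WT and -0.22 (-0.36 to -0.07) in KO. Of 13 intracellular and TCF/LEF genes tested, 0 were higher and 1 lower, Tcf7l2, a transcription factor of the pathway, at 52.8 CPM in Lgr5-positive and 83.0 CPM in Lgr5-negative cells of WT, and 51.8 against 78.9 CPM in KO. At equal depth Tcf7l2 was at -0.51 and -0.38, within 1.5-fold in both libraries. Lef1, another of these factors, was at 49.0 CPM in Lgr5-positive and 30.8 CPM in Lgr5-negative cells of WT, and 44.0 against 34.8 CPM in KO, with ratios of 0.67 (0.41 to 0.94) in WT and 0.34 (0.13 to 0.55) in KO.

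Of 11 WNT target genes tested, 2 were past 1.5-fold higher in both libraries and 0 lower, beside 1.47% and 2.79% of all genes. The median of the list was 0.47 in WT and 0.31 in KO. Ccnd1, which encodes cyclin D1, was at 30.2 CPM in Lgr5-positive and 10.9 CPM in Lgr5-negative cells of WT, and 28.2 against 16.2 CPM in KO, and at 109.8 and 108 CPM in epithelium. Among cells without an epithelial marker UMI its ratio in KO was 0.32, with under 100 UMIs in WT. Myc, a growth-promoting transcription factor, was at 12.4 CPM in Lgr5-positive and 7.41 CPM in Lgr5-negative cells of WT, and 13.7 against 8.70 CPM in KO, with ratios of 0.75 (0.21 to 1.31) in WT and 0.65 (0.25 to 1.07) in KO. At equal depth the KO ratios were 0.18 for Ccnd1 and 0.58 for Myc, so neither was past 1.5-fold in both libraries. The targets Sp5 and Axin2, a transcriptional repressor and a scaffold of the destruction complex, were within the limit, with ratios of 0.47 in WT and 0.31 in KO and of 0.10 in WT and 0.06 in KO.

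Of 16 pregranulosa genes outside the rule, 1 was higher and 4 were lower in both libraries, beside 1.47% and 2.79% of all genes. The median of the list was -0.03 in WT and -0.09 in KO. The higher one was Bmp2, a BMP ligand, at 98.4 CPM in Lgr5-positive and 47.6 CPM in Lgr5-negative cells of WT, and 87.1 against 54.3 CPM in KO. Its log2 ratio was 1.05 (0.84 to 1.25) in WT and 0.68 (0.52 to 0.84) in KO, and 1.64 and 1.14 among cells without an epithelial marker UMI. At equal depth it was 0.84 and 0.57, and with a collagen sum below 3, 0.75 and 0.49, within 1.5-fold in KO under each. Wnt4, Cdkn1b and Gatm were among the lower ones. Cdkn1b, which encodes the cell cycle inhibitor p27, was at 192 CPM in Lgr5-positive and 295 CPM in Lgr5-negative cells of WT, and 181 against 291 CPM in KO. Gatm, an enzyme of creatine synthesis, had ratios of -1.12 (-1.24 to -1.0) in WT and -1.18 (-1.30 to -1.07) in KO. At equal depth the ratios shrank, to -0.36 and -0.37 for Cdkn1b, and -0.65 and -0.84 for Gatm, so that Gatm stayed past 1.5-fold and Cdkn1b, like Wnt4, did not in both libraries.

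Irx3, Amhr2 and Hsd3b1, an Iroquois transcription factor, the receptor of anti-Müllerian hormone and a steroid dehydrogenase, were among the pregranulosa genes within the limit, with Irx3 at 506 CPM in Lgr5-positive and 478 CPM in Lgr5-negative cells of WT, and 438 against 429.5 CPM in KO. Of 10 genes of growing follicles 1 had enough UMIs, Inha, the inhibin alpha subunit. It was at 52.8 CPM in Lgr5-positive and 116 CPM in Lgr5-negative cells of WT, and 49.5 against 107 CPM in KO, with ratios of -1.14 (-1.32 to -0.96) in WT and -1.12 (-1.27 to -0.97) in KO. At equal depth the ratios were -0.76 and -0.84, so Inha remained lower.

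Of 19 gonadal transcription factors tested, 1 was higher in both libraries and 4 were lower, beside 1.47% and 2.79% of all genes. Their median was -0.07 in WT and -0.08 in KO. Lhx9, a LIM homeobox factor needed for gonad formation and known from the surface epithelium, was at 269 CPM in Lgr5-positive and 122 CPM in Lgr5-negative cells of WT, and 289 against 188 CPM in KO, and at 349 and 344 CPM in epithelium. Its log2 ratio was 1.14 (1.01 to 1.27) in WT and 0.62 (0.53 to 0.71) in KO, and 0.86 and 0.42 at equal depth, within 1.5-fold in KO. The lower ones were Sox9, best known from the supporting cells of the testis, with ratios of -1.66 (-2.15 to -1.18) in WT and -0.95 (-1.35 to -0.55) in KO, and Tcf21, Nr2f2 and Zfpm2, of which the first and second are listed as stromal markers as well. Gata4, Wt1 and Nr5a1, which act in gonads of both sexes, were within the limit, with Wt1 at 213 CPM in Lgr5-positive and 203 CPM in Lgr5-negative cells of WT, and 193 against 193 CPM in KO.

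The IGF list divided, with 3 of 11 genes higher and 1 lower, beside 1.47% and 2.79% of all genes. Its median was -0.32 in WT and -0.02 in KO. Igfbp2, an IGF-binding protein, was at 378 CPM in Lgr5-positive and 138 CPM in Lgr5-negative cells of WT, and 413 against 211 CPM in KO, and at 1079 and 985 CPM in epithelium. Igfbp3, another, was at 56.6 CPM in Lgr5-positive and 20.6 CPM in Lgr5-negative cells of WT, and 58.6 against 27.0 CPM in KO. Igf1, the growth factor itself, was at 106 CPM in Lgr5-positive and 48.2 CPM in Lgr5-negative cells of WT, and 111 against 66.5 CPM in KO, and at 72.5 and 88.2 CPM in epithelium, so its level was highest in Lgr5-positive cells among these classes, though below that of stroma at 172 and 158 CPM. The ratios among cells without an epithelial marker UMI were 1.31 and 1.35 for Igfbp2, 0.97 and 1.09 for Igfbp3 and 1.13 and 1.09 for Igf1. At equal depth they were 1.16 and 0.55 for Igfbp2, which was then within 1.5-fold in KO, 1.19 and 0.76 for Igfbp3 and 1.01 and 0.68 for Igf1.

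Of 18 keratins and mesothelial surface genes, 7 had enough UMIs. Of these 7, 5 were past 1.5-fold higher in both libraries, beside 1.47% of all genes, and 0 were lower. Their median was 1.22 in WT and 0.72 in KO. The limit on UMIs counts both sides together, so a gene can pass it through the Lgr5-positive side alone. This can raise the count and the medians, which do not speak for the listed genes left out. Krt8, a keratin of simple epithelia, was at 246 CPM in Lgr5-positive and 114 CPM in Lgr5-negative cells of WT, and 293 against 179 CPM in KO. Krt18, its partner in the filament, was at 237 CPM in Lgr5-positive and 92.3 CPM in Lgr5-negative cells of WT, and 273 against 166 CPM in KO. Epcam, an epithelial adhesion molecule, was at 76.8 CPM in Lgr5-positive and 33.0 CPM in Lgr5-negative cells of WT, and 77.7 against 46.6 CPM in KO. The other 2 were Muc16 and Lgals2, which passed the limit on UMIs in WT through the Lgr5-positive side. Muc16 had 123 UMIs in Lgr5-positive and 6 in Lgr5-negative cells of WT, and Lgals2 had 175 and 20. At equal depth the median was 0.85 in WT and 0.39 in KO, and Krt8, Krt18 and Epcam were within 1.5-fold in KO, at 0.39, 0.39 and 0.58. The rule admitted epithelial markers up to the pregranulosa sum on both sides, and their UMIs were more frequent in Lgr5-positive cells, as given above. Among cells without one, Krt8 was at 1.11 and 0.79, Krt18 at 0.80 and 0.61, and Epcam at 1.34 and 0.58.

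**Figure D4:**
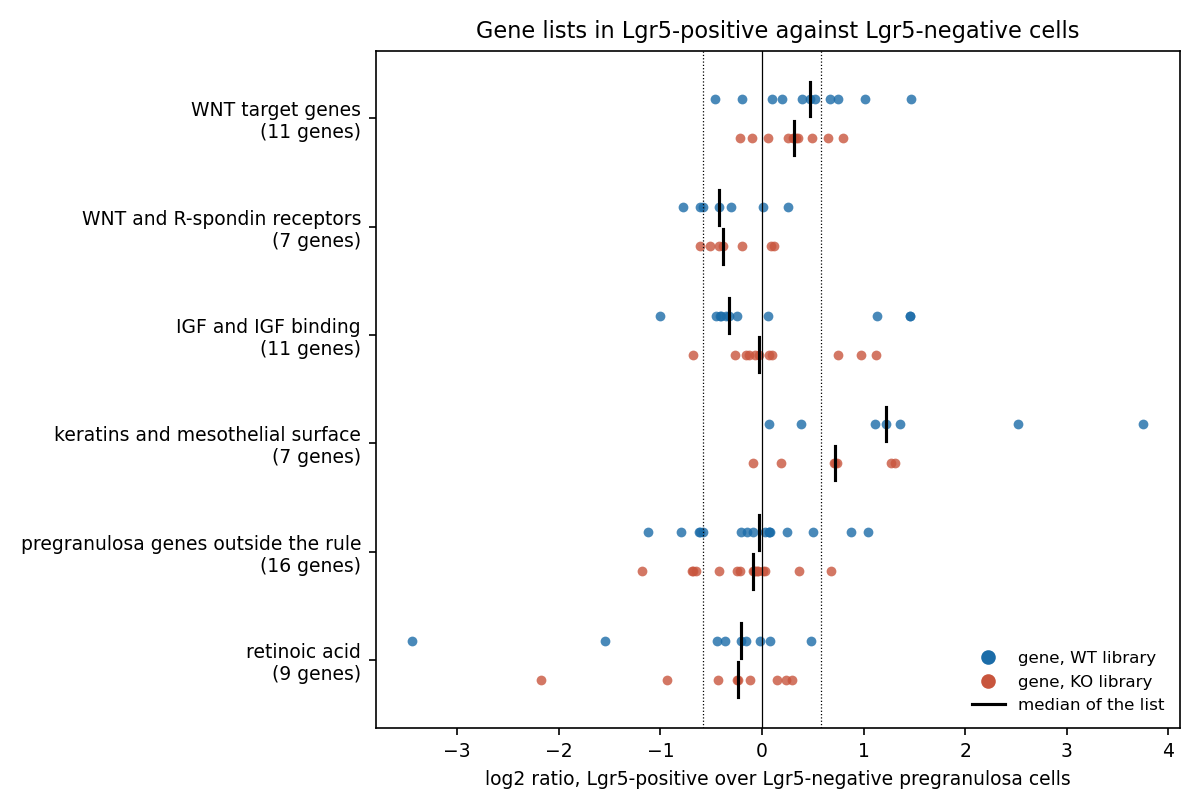
log2 ratio of Lgr5-positive over Lgr5-negative pregranulosa cells (x axis) for each gene tested in both libraries of 6 gene lists (y axis), in WT (blue) and KO (red), with the median of each list as a black bar and dotted lines at 1.5-fold. Keratins and mesothelial surface genes lie mostly to the right, while the lists of receptors and of pregranulosa genes have medians at or below 0.

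Retinoic acid genes included 2 lower of 9 tested and 0 higher, with a median of -0.21 in WT and -0.24 in KO. For this list and those that follow against Lgr5-negative cells, the shares over all genes were 1.47% higher and 2.79% lower. Crabp1, a retinoic acid-binding protein, was among the lower ones, at 1.58 CPM in Lgr5-positive and 17.2 CPM in Lgr5-negative cells of WT, and 2.30 against 10.4 CPM in KO, and at 98.1 and 75.7 CPM in stroma. Of 17 BMP, activin and AMH genes, 1 was higher (Bmp2) and 1 lower (Inha). Of 19 immediate early genes, 2 were higher, Atf3 and the stress-response gene Ier3, of which Ier3 at equal depth was at 0.58 and 0.49, within 1.5-fold, and 1 was lower, Klf2, a zinc-finger factor with ratios of -1.18 (-1.38 to -0.99) in WT and -0.76 (-0.93 to -0.59) in KO. Of 10 genes of Notch signalling and germ cell contact, of 14 basement membrane and adhesion genes and of 3 glucocorticoid responsive genes, 0 were past the limit in both libraries in either direction.

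Few Lgr5-positive cells had 3 or more UMIs of G2 and M phase genes after thinning, a smaller share than in epithelium. Against Lgr5-negative cells, 0 of 18 S phase genes and 0 of 14 G2 and M phase genes were past 1.5-fold in both libraries, with medians of 0.19 in WT and 0.28 in KO for the former and 0.40 in WT and 0.15 in KO for the latter. After thinning to 3000 UMIs, 4.66% (3.10 to 6.71) of WT and 5.24% (4.00 to 6.72) of KO Lgr5-positive cells had 3 or more UMIs of G2 and M phase genes. The share was 2.74% (1.47 to 4.63) and 4.51% (3.37 to 5.88) in Lgr5-negative cells, and 30.7% (24.2 to 37.8) and 27.6% (23.6 to 31.8) in epithelium. The intervals of the Lgr5-positive and Lgr5-negative cells overlap, and those of the epithelium lie above both. Of 9 CDK inhibitors and G1 cyclins, Ccnd1 was higher and Cdkn1b lower, as given above.

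The comparison with the epithelium showed a wide separation, part of which the rule set by weighing pregranulosa against epithelial genes. Of 8525 genes with enough UMIs in both libraries, 915 (10.7%) were at least 1.5-fold higher in Lgr5-positive cells in both and 704 (8.26%) lower, and nothing is read from these counts. Of 15 pregranulosa genes outside the rule, 10 were higher and 0 lower, with a median of 1.5 in WT and 1.48 in KO. The limit on UMIs counts both sides together, so a gene can pass it through the Lgr5-positive side alone, which can raise this count. Cdkn1b was at 192 CPM against 35.7 CPM in the epithelium of WT, and 181 against 36.2 CPM in KO, and Gatm at 110.1 CPM against 4.60 CPM in the epithelium of WT, and 85.6 against 2.13 CPM in KO. Thus, of these 3 classes, Gatm, Cdkn1b and Wnt4 were highest in Lgr5-negative cells, lower in Lgr5-positive cells and lowest in epithelium, in both libraries. Among cells without an epithelial marker UMI the step between the pregranulosa classes was -0.71 and -0.88 for Gatm. It was within 1.5-fold for Cdkn1b, at -0.22 and -0.43, and for Wnt4, at -0.28 and -0.41. Wnt4 was also at 336 and 342 CPM in stroma. Bmp2 did not take this order, at 98.4 CPM against 22.7 CPM in the epithelium of WT, and 87.1 against 20.7 CPM in KO, with its highest level of the 3 classes in Lgr5-positive cells, though above Lgr5-negative cells by less than 1.5-fold in KO at equal depth.

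Of the 10 leading genes above epithelium, Ly6d and Dock2 were also past 1.5-fold above Lgr5-negative cells in both libraries. Ly6d, a membrane-anchored surface protein, was at 77.7 CPM against 0.863 CPM in the epithelium of WT, and 106 against 0.532 CPM in KO, and at 36.9 and 41.4 CPM in Lgr5-negative cells. Dock2, a guanine nucleotide exchange factor best known from leukocytes, was at 32.7 CPM against 0.575 CPM in the epithelium of WT, and 32.9 against 0.709 CPM in KO, and at 10.9 and 15.7 CPM in Lgr5-negative cells. The others were Wfdc10, Spink4, Hsd3b1, Defb19, Gm826, Pla2g1b, Mettl24 and Fndc5. Hsd3b1 was at 40.5 CPM in WT against 0 UMIs in epithelium, at least 46.9-fold higher with a floor of 3 UMIs for the epithelium, and at 34.1 against 0.354 CPM in KO. Wfdc10 was at least 23.0-fold and Spink4 at least 25.3-fold higher in WT, and Gm826 at least 19.9-fold higher in KO, on the same floor. Fndc5, the precursor of irisin, was at 169.8 CPM against 3.16 CPM in the epithelium of WT, and 141 against 5.14 CPM in KO, with a higher level in Lgr5-negative cells, at 334 and 258 CPM.

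The 10 leading genes below epithelium were S100a6, Krt17, Cldn15, Tmem108, Fn1, Gpm6a, Krt14, Tm4sf1, Efemp1 and Fbln2. Fn1, which encodes fibronectin, was at 6.83 CPM against 60.1 CPM in the epithelium of WT, and 9.01 against 62.0 CPM in KO, and the keratin Krt14 at 2.93 CPM against 27.3 CPM in the epithelium of WT, and 3.77 against 25.7 CPM in KO. S100a6, a calcium-binding protein, was at 3.78 CPM against 77.1 CPM in the epithelium of WT, and 2.85 against 65.4 CPM in KO, and 64.5% of its UMIs in WT Lgr5-positive cells came from 1 cell. All 20 G2 and M phase genes and 16 of 18 S phase genes were lower in Lgr5-positive cells in both libraries, with medians of -2.57 in WT and -1.83 in KO for the former. Of 18 keratins and mesothelial surface genes, 12 had enough UMIs over both sides, and 10 of these were lower, beside 8.26% of all genes. Their median was -1.86 in WT and -1.69 in KO. A gene can pass the limit on UMIs through the epithelial side alone. This can raise the count and the size of the medians, which do not speak for the listed genes left out. In the WNT lists, 1 of 10 target genes was higher (Cd44, a hyaluronan receptor) and 1 lower (Ccnd1). Of 6 receptors 1 was higher and 0 lower, and of 5 ligands 1 was higher and 1 lower. Of 13 intracellular and TCF/LEF genes 0 were higher and 1 lower, and of 5 inhibitors and feedback genes 0 were past the limit. Over all genes, 10.7% were higher and 8.26% lower, and nothing is read from these counts. Axin2 was at 57.9 CPM against 73.6 CPM in the epithelium of WT, and 61.9 against 70.4 CPM in KO.

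KO and WT Lgr5-positive cells were compared to ask whether the deletion of the glucocorticoid receptor goes with other transcript levels in these cells. Listed genes of WNT signalling and pregranulosa genes were within 1.5-fold, while Slc7a2 and genes of the G2 and M phase were higher in KO and C1rb, Trpc7 and Nr3c1 lower. Of 9770 genes with enough UMIs, 143 (1.46%) were at least 1.5-fold higher in KO and 107 (1.1%) lower, and the median log2 ratio was -0.00. With cells drawn to equal depth, 329 from each library, 346 were higher and 232 lower. The drawn KO cells were deeper than the KO class as a whole, at a median of 12262 against 9331 UMIs. The markers were within 1.5-fold, with log2 ratios of KO over WT of 0.13 (0.03 to 0.23) for Lgr5, 0.06 (0.03 to 0.09) for Gng13, 0.04 (-0.01 to 0.09) for Kitl and -0.06 (-0.11 to -0.01) for Wnt6. In the 5 WNT lists, of 6, 8, 7, 14 and 11 genes tested, 0 were past 1.5-fold in either direction, and the same held for 16 pregranulosa genes and 19 gonadal transcription factors.

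Of 6 listed glucocorticoid responsive genes, 4 had enough UMIs and 0 were past 1.5-fold in either direction. Fkbp5, a co-chaperone of the receptor and one of its best known targets, was at 90.3 CPM in WT and 88.0 CPM in KO, a log2 ratio of -0.04 (-0.18 to 0.10). Tsc22d3, which encodes the target GILZ, was at 30.7 and 28.9 CPM, a ratio of -0.09 (-0.33 to 0.15), and Klf9 at 18.5 and 17.9 CPM, a ratio of -0.05 (-0.36 to 0.27). Per1, a clock gene, was at 6.83 and 5.79 CPM, a ratio of -0.24 (-0.78 to 0.31). The intervals of Fkbp5, Tsc22d3 and Klf9 lie within 1.5-fold of no difference, and that of Per1 reaches beyond it. Markers of other cells in the Lgr5-positive cells were at 133 CPM in WT and 131 CPM in KO for germ cells, with 1 of 8 genes higher (Hormad1) and 2 lower (Dnd1 and Rec8), and at 135 and 167 CPM for stroma, with 1 of 6 higher (Pdgfra). Over all genes, 1.46% were higher and 1.1% lower. The immune markers were at 0.732 and 17.7 CPM, with 5 of 8 at 0 in WT and 0 of 8 in KO. Their part in the differences was not tested.

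The gene with the largest ratio upwards was Slc7a2, a transporter of cationic amino acids, at 3.17 CPM in WT and 33.5 CPM in KO, a log2 ratio of 3.40 (2.83 to 4.03). It was at 1.11 and 24.8 CPM in Lgr5-negative cells and at 0.863 and 19.3 CPM in epithelium, so KO was above WT in all 3 classes. The others were Gm8730, Tm4sf1, Zdhhc2, Hist1h1d, Gm10709, Cela1, Anln, Ndc80 and Tacc3. Downwards, C1rb, a complement protease gene, went from 11.3 to 0.827 CPM, a ratio of -3.78 (-4.95 to -2.79), Trpc7, a cation channel, from 11.6 to 1.29 CPM, and Cdh12, a cadherin, from 14 to 3.49 CPM. Nr3c1 itself was among the 10, and the rest were Gm10031, Gm4723, Gm14296, Gm14305, Gm14295 and 2610305D13Rik. Gm8730, Gm10709 and the other Gm models may share reads with near-identical copies, so their values are uncertain.

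Genes of the G2 and M phase were higher in KO as a list. Of 20 tested, 11 were past 1.5-fold higher, 0 lower and 19 above 0, with a median of 0.61, beside 1.46% of all genes higher and the median of -0.00. Top2a, the topoisomerase of mitotic chromosomes, was at 39.3 CPM in WT and 69.7 CPM in KO, a ratio of 0.83 (0.64 to 1.02), and Mki67, the proliferation marker, at 16.1 and 26.5 CPM, a ratio of 0.72 (0.42 to 1.03). The highest ratio was that of Nusap1, a spindle protein, at 1.16 (0.84 to 1.48), and the lowest that of Ccnb2, which encodes cyclin B2, at -0.01 (-0.33 to 0.32). The summed level of the list was 341 CPM in WT and 524 CPM in KO Lgr5-positive cells, 264 and 436 CPM in Lgr5-negative cells, and 2034 and 1773 CPM in epithelium. In Lgr5-negative cells 15 genes could be tested, of which 8 were past 1.5-fold higher, 0 lower and 15 above 0. Their median was 0.74, and the summed level was higher in KO in both pregranulosa classes. In epithelium 0 of 20 genes were past the limit and the median was -0.15. The shares over all genes for KO over WT in Lgr5-negative cells and in epithelium are not given here. The counts of the list in these classes therefore have no background beside them. S phase genes had a median of 0.20, with 16 of 18 above 0, 1 past the limit upwards and 1 downwards, the replication helicase subunit Mcm5, at 55.6 and 33.5 CPM.

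**Figure D5:**
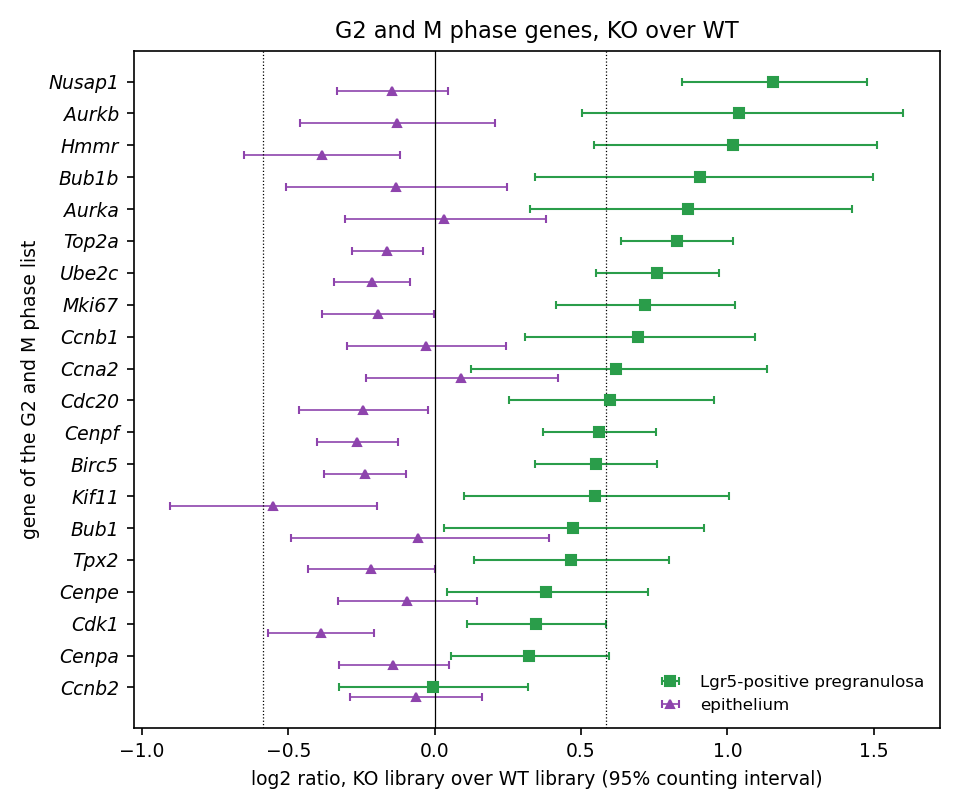
log2 ratio of KO over WT (x axis) for the 20 genes of the G2 and M phase list (y axis), in Lgr5-positive pregranulosa cells (green) and epithelium (purple), with exact 95% counting intervals as bars and dotted lines at 1.5-fold. In Lgr5-positive cells 19 of 20 points lie above 0, and in epithelium 2 of 20 do. Lgr5-negative cells, with 15 of 15 tested genes above 0, are not drawn.

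These transcripts were not spread evenly over the cells. The highest WT cell held 22.1% of the Nusap1 and 12.4% of the Top2a UMIs of its class, and the share of cells with 3 or more G2 and M phase UMIs after thinning, 4.66% in WT and 5.24% in KO as given above, did not differ beyond counting error. Among cells with fewer than 5 such UMIs per 10000, 6 genes of the list could be tested, 0 were past the limit and the median was 0.24. With cells drawn to equal depth (329 from each library), 18 of 18 genes were past 1.5-fold and the median was 2.37. The drawn cells had a median of 12262 UMIs in KO and 12650 in WT. Over all Lgr5-positive cells it was 9331 and 13734, so the draw took deeper KO and shallower WT cells than the classes as a whole.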

How the data were processed

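E15.5 ovary cells were captured with the 10X Single Cell 3' v3 kit in 1 WT and 1 KO library. The deposited values are raw UMI counts per gene and barcode, which the authors made with Cell Ranger 3.0.2 per the file headers. The submitters' processing notes name mm10 and Seurat 3.2.3. The settings that called cells and the gene annotation are not given in the sources used here. Positions come from GENCODE M21 (GRCm38), which matched 27645 of 27998 gene identifiers (98.7%).

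The cells, comparators and gene lists were chosen with earlier results of these data known. No deposited cell annotation was used, so classes may differ from those of the study. UMIs were summed over the cells of a class in each library and scaled to CPM, and log2 ratios of CPM carry exact 95% counting intervals. A CPM carries an exact Poisson interval and a share of cells an exact Clopper-Pearson interval. These cover counting error only, and PCR duplicates are removed by UMIs. With 1 library of each genotype there was nothing to test across, and no p-value is given. A gene was past the limit at 1.5-fold, among genes with 100 or more UMIs over both sides, and in both libraries where each library was compared within itself. For a group at 0 UMIs, a floor of 3 UMIs gave the bound.

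The named genes were the genes of the rule with Lgr5, Gng13, Kitl and Wnt6; in each direction the 12 with the largest ratio against Lgr5-negative cells and the 10 against epithelium, ranked by the smaller ratio of the libraries, with the genes of the rule left out; the 10 with the largest KO over WT ratio; and members of the gene lists, those past 1.5-fold first. The list members named within the limit, and the values of Ly6d and Dock2 against Lgr5-negative cells, were chosen after their values were seen. Some items that meet this rule are not reported here.

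Doublets were not removed. Scrublet (scanpy 1.11.5, expected rate 8%) marked 3.26% of WT and 7.71% of KO barcodes, among them 10 WT and 35 KO Lgr5-positive cells, and their removal was an alternative. The other alternatives were the limits of the study on cells (1500 to 6500 genes and 5500 to 40000 UMIs in WT, 1200 to 5500 genes and 3000 to 30000 UMIs in KO), thinning to 3000 UMIs, 2 or more Lgr5 UMIs, a germ marker limit of 5, cells drawn to equal depth in bins of 0.25 log2 units, means over cells, other scalings, no filter on counts and a fold limit of 2. After the data were seen, 5 were added: a collagen limit of 3, no epithelial marker UMI, no barcodes rich in haemoglobin, no shared barcodes, and no cells with 5 or more G2 and M UMIs per 10000. The counting steps were tested on simulated data. Python 3.11.15, numpy 2.4.6, scipy 1.17.1, pandas 2.3.3 and matplotlib 3.10.9 were used.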

Additional observations from a re-analysis of the deposited data

Results flagged for a closer look

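Gm37350 and Defb42 had ratios of Lgr5-positive over Lgr5-negative pregranulosa cells past 1.5-fold in opposite directions in the libraries. Gm37350, a long noncoding RNA gene on chromosome 3, had a log2 ratio of 0.92 (0.32 to 1.55) in WT and -0.90 (-1.18 to -0.63) in KO. Its level in Lgr5-positive cells was 11.2 CPM in WT and 16.7 CPM in KO, against 5.93 and 31.2 CPM in Lgr5-negative cells, so the level that stood apart was that of the KO Lgr5-negative cells. Defb42, a beta-defensin gene on chromosome 14, had 0.94 (0.28 to 1.65) in WT and -0.66 (-1.18 to -0.14) in KO, at 9.27 and 5.24 CPM against 4.82 and 8.26 CPM. With 1 library of each genotype the difference between the ratios was not tested.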

How the results depend on the processing

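The share of pregranulosa cells with Lgr5 moved to 23.8% in WT and 23.2% in KO after thinning to 3000 UMIs, to 45.0% and 33.7% for 2 or more Lgr5 UMIs with cells of 1 left out, to 62.0% and 53.6% with a collagen sum below 3, and to 36.9% and 37.2% among cells without an epithelial marker UMI. Thinning left 10 higher and 53 lower against Lgr5-negative cells, 156 and 161 against epithelium, and 48 and 51 for KO over WT. Cells of equal depth gave 38 higher and 136 lower against Lgr5-negative cells, 400 and 364 against epithelium, and 346 and 232 for KO over WT. Without a filter on counts the numbers were 756 higher and 1408 lower against Lgr5-negative cells, 2243 and 1867 against epithelium, and 2551 and 1996 for KO over WT, and with a fold limit of 2 they were 28 higher and 75 lower against Lgr5-negative cells, 386 and 340 against epithelium, and 23 and 20 for KO over WT. A collagen sum below 3 gave 73 higher and 114 lower genes against Lgr5-negative cells, the absence of epithelial marker UMIs gave 76 higher genes there, and leaving out cells with 5 or more G2 and M UMIs per 10000 gave 91 genes higher in KO. Of the 132 higher and 251 lower genes against Lgr5-negative cells, 9 and 45 were still past 1.5-fold after thinning, where 44 and 88 had 100 UMIs, 64 and 105 with a collagen sum below 3, and 39 and 147 without epithelial marker UMIs. Under the other settings run, the limits of the study, 2 or more Lgr5 UMIs, a stricter germ cell limit, removal of called doublets, means over cells, both other scalings, and removal of shared or haemoglobin-rich barcodes, these counts kept within 1.5 times. Ratios of Lgr5-positive over Lgr5-negative cells that changed sign were, for Hbb-bs in KO, -0.32 thinned, -0.97 without called doublets and -0.17 without haemoglobin-rich barcodes; for Hbb-bt, -0.50 in WT and -1.72 in KO without doublets, -0.49 and -0.14 without haemoglobin-rich barcodes, -0.15 in WT at equal depth and -0.89 in KO thinned; and for Hba-a1, -0.084 in WT and -2.89 in KO without doublets, -0.10 in WT without haemoglobin-rich barcodes and -0.58 in KO thinned. Thinning also turned Cdc42ep1 in WT (-0.74) and Muc16 in WT (-0.32), and the absence of epithelial marker UMIs turned Tmem151a in KO (-0.023) and Lgals2 in WT (-0.50), each with under 100 UMIs. The KO over WT ratio of Ndc80 was -0.051 thinned and -0.087 without G2 and M cells. The causes were not tested. No paired analysis was possible because each genotype has 1 library.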

Other observations

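Some genes had their highest level in Lgr5-positive cells in both libraries when Lgr5-negative cells and epithelium were set beside them. Genes with this order were not counted. Among them were Gm17660, Igf1, whose level was higher still in stroma, and, by less than 1.5-fold in KO at equal depth, Bmp2. Ly6d and Dock2 had this order as well. The log2 ratios over Lgr5-negative cells were 1.07 (0.84 to 1.31) in WT and 1.35 (1.18 to 1.52) in KO for Ly6d, and 1.58 (1.17 to 2.01) and 1.06 (0.78 to 1.36) for Dock2. Gng13 had this order too, but it entered the sum that set pregranulosa cells apart from epithelium, so its level is a description. With a collagen sum below 3 its KO ratio over Lgr5-negative cells was 0.53, within 1.5-fold. A Ly6d UMI was found in 22.3% of the WT and 23.0% of the KO Lgr5-positive cells, and a Dock2 UMI in 28.0% and 21.7%, at median depths of 13734 and 9331 UMIs. The comparisons share the Lgr5-positive cells, so a high level in them enters both.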
